A study of Rattus norvegicus with 8 samples.

Results

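The Fos and Jun transcription factors were followed here through every probe set that the platform's annotation table gave to Fos, Fosl1, Fosl2, Jun or Junb. These 5 genes, of 4367 genes tested, had 12 probe sets of the 8799 on the array: 3 for Fos, 1 for Fosl1, 2 for Fosl2, 4 for Jun and 2 for Junb. A probe set is a group of short oligonucleotides that are read together to report a transcript, and its intensity is its brightness on a linear scale. The annotation gave several gene symbols to 308 probe sets, none of the 12 among them. The 8 samples were whole rat brains, each hybridised as total RNA to 1 array, and per the labels every rat was intubated. The control group (3 samples) breathed isoflurane, a volatile anaesthetic, for 3 min at a concentration the labels do not give and was then perfused with cold saline. The 1 hr group (2 samples) and the 2 hr group (3 samples) were exposed to 2% isoflurane. For the exposed rats the labels mention no perfusion, and for no rat do they give strain, age or sex. A brain without any isoflurane was not analysed here.

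Fos and Jun proteins carry a basic region that binds DNA and a leucine zipper through which they pair. Fos family proteins need a Jun family partner, whereas Jun proteins can also pair with themselves, and the dimers form the transcription factor AP-1. Fos, Jun and Junb are immediate early genes. In neurons their transcription starts within minutes of synaptic activity, calcium entry or growth factor signalling, and their short-lived mRNA disappears soon after the stimulus ends. Fos mRNA is for this reason a common marker of recently active brain regions. Whole brain RNA averages over all regions, and fewer cells with the transcript and less transcript per cell cannot be told apart in it.

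Markers of the labelled tissue were present on all arrays. The mean log2 intensity of 10 neuron markers lay between 7.38 and 8.39 per array, that of 7 astrocyte markers between 8.62 and 9.55 and that of 6 oligodendrocyte markers between 9.53 and 10.10, against a floor of 3.19 under which values were not distinguished. Some arrays stood apart. Control replicate 3, 1 hr replicate 1 and 2 hr replicate 3 had top intensities of 23009 to 37712, against 3504 to 12445 on the other 5 arrays. The probe set that reports 5S ribosomal RNA, a technical control, had intensities of 12.9 to 23.7 on control replicates 1 and 2 and 2 hr replicate 1, and 70.4 to 141.7 on the other 5 arrays. Values below are therefore also given without the 3 arrays of highest top intensity and within these sets of arrays.

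Of the 12 probe sets, all 3 of Fos and both of Junb read lower after 2 hr of isoflurane than in the control group, while the 7 probe sets of Jun, Fosl2 and Fosl1 were split in direction. None of the 12 passed limma's test over the 7770 probe sets tested (adjusted p = 1 for each). Neither did any other probe set, so that 0% of the array was called in this comparison, and 139 probe sets had an unadjusted p under 0.05. At an unadjusted p under 0.05, 2 of the 12 were lower, both of them Fos probe sets, where 0.682% of all probe sets were lower at that level. The 2 hr and control arrays did not overlap for the same 2 Fos probe sets, and 2.84% of all probe sets were lower without overlap. In all, 7 of the 12, none of them Fosl1, had a negative log2 difference against 47.7% of all probe sets. The median log2 difference of the 12 was -0.17, against 0.02 over all probe sets. Probe sets of the same gene were read on the same arrays and are not independent, so these counts are not counts of separate genes. The members were chosen with earlier results of these data known, so these shares, here and below, are a description and no test of the family.

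Fos, the member that is induced and lost fastest, had its brightest signal on the probe set X06769cds_g_at. Its intensity was 357.5, 309.1 and 422.9 on the control arrays, 221.5 and 271.4 on the 1 hr arrays, and 179.7, 233.3 and 214.5 on the 2 hr arrays. Every exposed array read below every control array, and the 1 hr and 2 hr arrays overlapped. The mean log2 intensity was 7.70 ± 0.19 (SD, n = 3) at 2 hr and 8.49 ± 0.23 (SD, n = 3) in the controls, a log2 difference of -0.79 (SE 0.246) or 1.73-fold lower. The unadjusted p was 0.00972 by limma, rank 34 of 7770, and the adjusted p was 1. Because all 2 hr arrays lay below all control arrays, the sign of the difference could not vary between sets of arrays, only its size. The difference was -0.98 within the 3 arrays of highest top intensity (1 against 1) and -0.70 within the others (2 against 2). It was -0.89 among the arrays of low 5S reading (1 against 2) and -0.92 among the rest (2 against 1).

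The other probe sets of Fos gave the same direction with larger differences and wider spread. X03347cds_g_at read 347.5, 179.5 and 137.7 on the control arrays, 79.7 and 145.0 on the 1 hr arrays, and 68.5, 76.2 and 91.5 on the 2 hr arrays. All 2 hr arrays lay below all control arrays, and 1 hr replicate 2 lay inside the control range. The mean log2 intensity was 6.29 ± 0.21 (SD, n = 3) at 2 hr and 7.68 ± 0.69 (SD, n = 3) in the controls, a difference of -1.39 (SE 0.396, unadjusted p = 0.00596 by limma, rank 24 of 7770). The annotation table lists this probe set under an accession other than the one in its name, and which sequence it was built from was not checked here. X06769cds_at read 86.6, 57.3 and 40 on the control arrays, 10 and 65.9 on the 1 hr arrays, and 30.2, 12.9 and 42.2 on the 2 hr arrays. Here 2 hr replicate 3 read just above control replicate 3, so the groups overlapped, and the log2 difference was -1.20 (SE 0.734). Within the 3 arrays of highest top intensity X06769cds_at differed by 0.08 and X03347cds_g_at by -0.59, and within the other arrays by -1.84 and -1.79.

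Junb, a Jun family member that activates transcription more weakly than Jun on many AP-1 sites, read lower at 2 hr on both probe sets without passing. X54686cds_at, the brighter one, read 363.5, 152.1 and 125.3 on the control arrays, 137.6 and 160.3 on the 1 hr arrays, and 115.2, 113.1 and 134.8 on the 2 hr arrays. Control replicate 1 stood far above all other arrays, and 2 hr replicate 3 lay within the control range. The mean log2 intensity was 6.91 ± 0.14 (SD, n = 3) at 2 hr and 7.57 ± 0.82 (SD, n = 3) in the controls, a difference of -0.66 (SE 0.387). Without control replicate 1 it shrank to -0.19. The second probe set, rc_AA891041_at, read 278.1, 267.9 and 120.4 on the control arrays, 26.8 and 133.1 on the 1 hr arrays, and 114.0, 123.2 and 168.7 on the 2 hr arrays. Control replicates 1 and 2 were the highest here, and control replicate 3 lay among the exposed arrays. The difference at 2 hr was -0.64 (SE 0.565). Both Junb probe sets depended on which arrays were set against each other: they differed by -1.04 and -1.20 within the 5 other arrays but by 0.11 and 0.49 between the 2 hr and the control array of highest top intensity, and by -1.03 and -1.26 among the arrays of low 5S reading but by -0.02 and 0.26 among the rest.

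**Figure D1:**
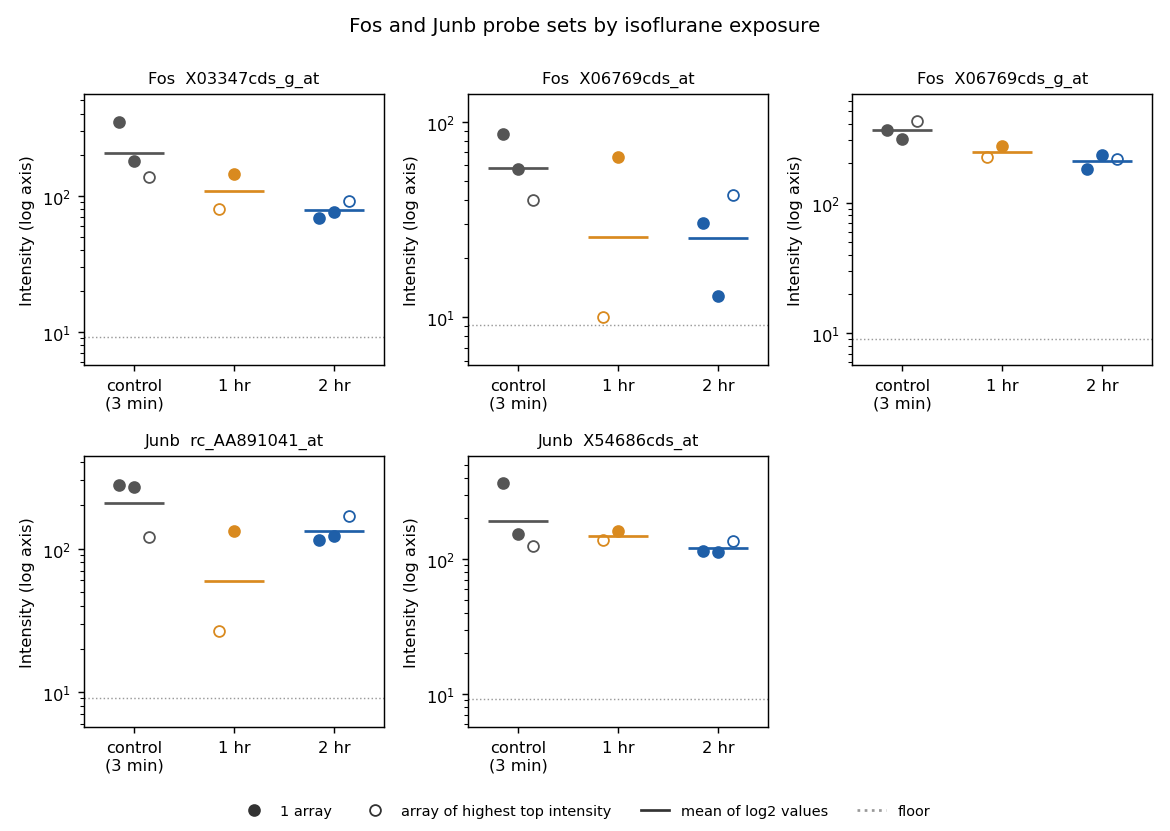
Intensity (log axis) of the 3 Fos and 2 Junb probe sets on each array, by exposure to isoflurane; points are single arrays, open points the 3 arrays of highest top intensity, solid lines the mean of the log2 values of a group and the dotted line the floor of 9.1. On Fos X06769cds_g_at the 2 hr arrays (179.7 to 233.3) and the 1 hr arrays (221.5 and 271.4) all lie below the control arrays (309.1 to 422.9).

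The sequence before the start of Junb is shown because Junb read lower beside Fos, with that of Fosl1, which read near the floor, for comparison. RefSeq promoters (build GRCr8, plus strand for both) were matched by symbol for 3 of the 5 members, Fosl1, Fosl2 and Junb. The 250 bases before the start lie at chr19:40080876-40081125 for Junb and chr1:212183635-212183884 for Fosl1. Capitals mark, on either strand, the TGACG core of the cyclic AMP response element, to which CREB and ATF factors bind, and the TATAAA box.
Junb: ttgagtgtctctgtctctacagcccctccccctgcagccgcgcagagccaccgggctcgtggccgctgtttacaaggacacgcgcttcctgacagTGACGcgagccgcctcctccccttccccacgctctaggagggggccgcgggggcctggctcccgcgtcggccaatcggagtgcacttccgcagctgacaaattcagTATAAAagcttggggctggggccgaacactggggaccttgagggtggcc
Fosl1: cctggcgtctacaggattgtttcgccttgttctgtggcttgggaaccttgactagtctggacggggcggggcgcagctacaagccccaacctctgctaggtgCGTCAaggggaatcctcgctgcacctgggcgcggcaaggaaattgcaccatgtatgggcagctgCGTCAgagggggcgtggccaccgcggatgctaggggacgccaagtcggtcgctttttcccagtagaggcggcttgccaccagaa
Junb held 1 TGACG match, 155 to 151 bases before its start, and a TATAAA box 49 to 44 bases before it. Fosl1 held 2 TGACG matches on the opposite strand, at 148 to 144 and 84 to 80 bases before its start, and no TATAAA box, and Fosl2 held neither motif. Of 33469 promoters in the table, 18.2% held TGACG and 12.9% TATAAA on either strand in the same 250 bases. The full cyclic AMP response element TGACGTCA (1.59% of promoters), which contains TGACG, the AP-1 site TGANTCA (6.34%) and the CArG box bound by serum response factor (1.497%) had 0 matches in the windows of these 3 genes.

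Jun, the partner of Fos in the classic AP-1 dimer and a substrate of the JNK kinases, had 4 probe sets that did not agree on a direction. Its brightest, rc_AI175959_at, read 299.5, 294.7 and 48.5 on the control arrays, 98.4 and 216.6 on the 1 hr arrays, and 288.2, 185.3 and 165.1 on the 2 hr arrays. Control replicate 3 alone lay below all exposed arrays and the other controls above them. The log2 difference at 2 hr was 0.35 (SE 0.661). Without control replicate 3 it was -0.52, and without the 3 arrays of highest top intensity -0.36, so its direction turned when that array was left out.

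The same control array was the lowest on the remaining Jun probe sets apart from 1 exposed array on one of them. On rc_AA945867_at it read 1.5, under the floor, against 109.7 and 90.1 on the other controls. The 1 hr arrays read 76.2 and 62.3 and the 2 hr arrays 131.5, 60.4 and 105.6 there, and the difference at 2 hr was 1.07 (SE 0.834), or -0.08 without control replicate 3. On X17163cds_s_at the controls read 66.7, 74.3 and 9 (just under the floor of 9.1), the 1 hr arrays 32.3 and 38.4 and the 2 hr arrays 87.6, 23.7 and 15.4, with a difference of -0.17 (SE 0.880), or -1.15 without control replicate 3. On rc_AA944014_at the controls read 39.7, 50.4 and 34.8, the 1 hr arrays 63.2 and 19.7 and the 2 hr arrays 51.0, 47.5 and 61.2, with a difference of 0.36 (SE 0.485). This difference kept its sign in all 21 alternative settings, some of which could not change it. With the floor at the 5th or the 40th percentile the difference of rc_AA945867_at was 1.72 or 0.53. The groups overlapped on all 4. Within the 3 arrays of highest top intensity the 4 differences at 2 hr ran from 0.76 to 3.54, both ends set by a control value at the floor, and within the others from -0.63 to 0.14. Among the arrays of low 5S reading they ran from -0.04 to 0.40 and among the rest from 0.63 to 3.13.

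Fosl2 (Fra-2), a Fos relative without the strong activation domain of Fos, followed Jun in its low reading on control replicate 3. On rc_AI230842_at, the brighter probe set, the controls read 59.2, 59.8 and 17.7, the 1 hr arrays 20.5 and 63.6, and the 2 hr arrays 57.6, 64.8 and 47.0. Control replicate 3 and 1 hr replicate 1 stood below the other 6 arrays, which lay close together. The difference at 2 hr was 0.50 (SE 0.602), or -0.09 without control replicate 3. On U18982_s_at the controls read 30.7, 28.4 and 14.3, the 1 hr arrays 13.4 and 42.3, and the 2 hr arrays 31.6, 22.4 and 12.1, so all 3 arrays of highest top intensity read lowest, and the difference at 2 hr was -0.18 (SE 0.574). Within the 3 arrays of highest top intensity the probe sets differed by 1.41 and -0.24, and within the others by 0.04 and -0.15. Fosl1 (Fra-1), which is induced later than Fos in stimulated cells, read between 4.7 and 10.2 on all arrays and lay at or under the floor on 5 of 8, so no order of its levels can be given. Its probe set M19651_at passed the filter on low values through 3 arrays just above the floor.

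**Figure D2:**
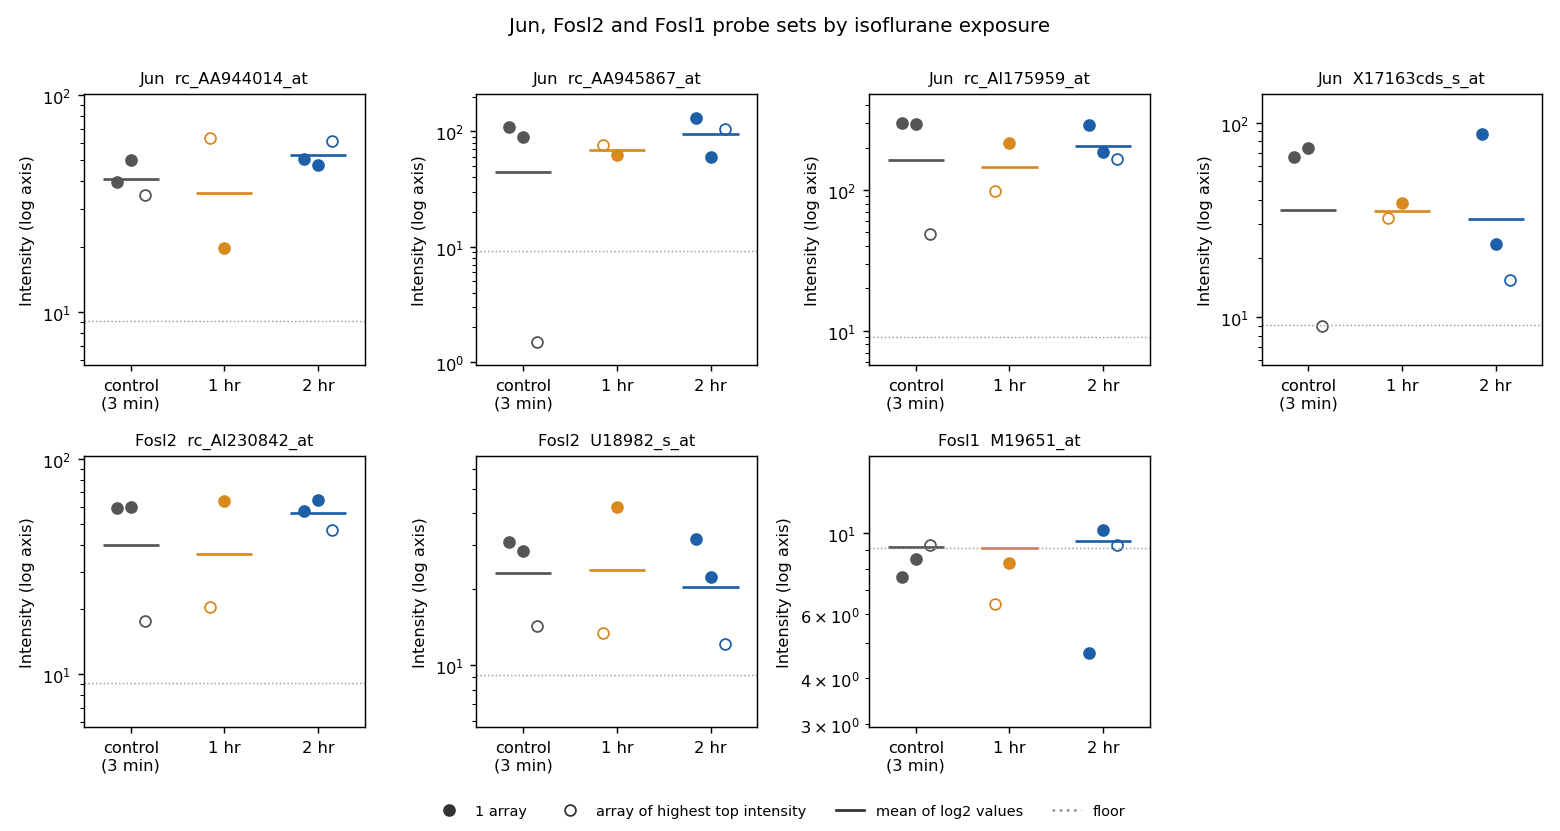
Intensity (log axis) of the 4 Jun, 2 Fosl2 and 1 Fosl1 probe sets on each array, with symbols as for Fos and Junb. Control replicate 3, the open control point, is the lowest control array on all Jun and Fosl2 probe sets, at 48.5 against 294.7 and 299.5 on Jun rc_AI175959_at, and Fosl1 stays near the floor of 9.1.

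Control replicate 3, the control array of these low Jun and Fosl2 values, was also low in most cell type markers. Control replicate 3 had the lowest mean log2 level of all 8 arrays for 6 of 9 cell type marker lists: neurons (7.38), astrocytes (8.62), oligodendrocytes (9.53), microglia and macrophages (4.94), endothelial and mural cells (5.46) and meningeal and fibroblast cells (6.11). On the blood list, with 4 of 7 markers measured, control replicate 3 was instead the highest array, at 5.79 against 4.28 on the lowest. The marker levels did not follow the low Jun and Fosl2 values on every array. The array 1 hr replicate 1 also read low on Jun rc_AI175959_at and on Fosl2, but it was the lowest for none of the 9 lists. The 9 endothelial and mural markers measured, of 11 listed, summed to 1682 to 2136 on the 2 hr arrays and 790 to 1612 on the control arrays. Their sums on the 1 hr arrays, 1380.5 and 1550, lay within the control range. In mean log2 level the endothelial and mural list overlapped between the 2 hr and control groups, with 5.79 to 6.19 on the 2 hr arrays and 5.46 to 6.17 on the control arrays. The 7 microglia and macrophage markers, of 8 listed, had mean log2 levels of 5.43 to 6.03 on the 2 hr arrays, 5.55 and 5.61 on the 1 hr arrays and 4.94 to 5.43 on the control arrays, so all exposed arrays lay above all controls, though 2 hr replicate 3 and control replicate 2 were level at 5.43 after rounding. The 10 neuron markers, of 12 listed, summed to 3702 to 6161 on the 2 hr arrays and 3997 to 6726 on the control arrays. The mean log2 level of the choroid plexus markers ran from 5.85 to 6.82 on 7 arrays and was 7.69 on 1 hr replicate 2. For the 7 pituitary markers it ran from 4.44 to 4.97 on 6 arrays and was 5.85 on 1 hr replicate 2 and 5.82 on 2 hr replicate 2. The part of these measures in the Fos and Jun family differences was not tested.

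Without the 3 arrays of highest top intensity, 9 of the 12 probe sets read lower at 2 hr (2 arrays) than in the controls (2 arrays) and 3 higher, where 41.8% of all probe sets read lower. All 5 probe sets of Fos and Junb and the Jun probe set rc_AI175959_at were lower without overlap, 6 of 12, where 11.7% of all probe sets were. Fos X06769cds_g_at and X03347cds_g_at did not overlap on all arrays, so for them this could not come out otherwise. The arrays left out include control replicate 3, the lowest control on both Junb probe sets. Leaving out these arrays brought the differences of Jun and Fosl2 down or left them near 0 and those of Junb and of the dimmer Fos probe sets further below 0.

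**Figure D3:**
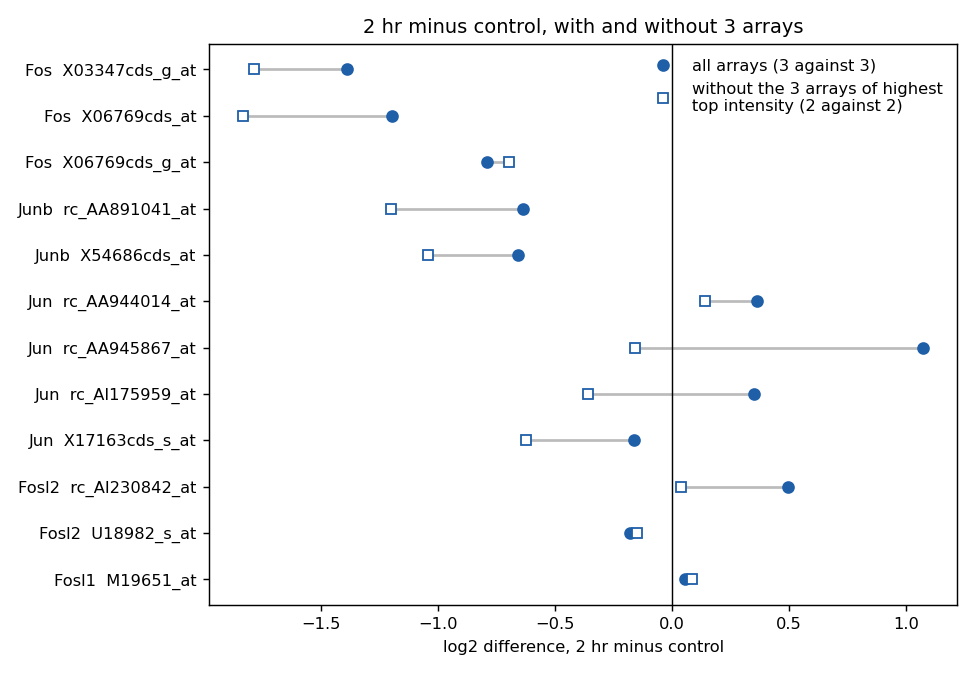
Log2 difference of each probe set, 2 hr minus control, with all arrays (filled circles, 3 against 3) and without the 3 arrays of highest top intensity (open squares, 2 against 2). The 5 Fos and Junb probe sets lie below 0 both ways, from -1.39 to -0.64 and from -1.84 to -0.70, while Jun rc_AA945867_at moves from 1.07 to -0.16.

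After 1 hr of isoflurane 10 of the 12 probe sets read lower than in the controls and 2 higher, against 44% of all probe sets lower. Of the 11 probe sets other than that of Fosl1, which lay at the floor on both 1 hr arrays, 9 read lower. Again 0% of the array passed limma's test, 208 probe sets (2.68%) had an unadjusted p under 0.05, and the adjusted p was 1 for all 12. Unadjusted, 1 of the 12 was lower at p under 0.05, where 0.849% of all probe sets were. The control arrays serve both comparisons, so the 1 hr and 2 hr differences are not independent. Fos X06769cds_g_at averaged 7.94 ± 0.21 (SD, n = 2) at 1 hr and 8.49 ± 0.23 (SD, n = 3) in the controls, a log2 difference of -0.55 (SE 0.275) or 1.47-fold lower. It was the 1 member probe set whose 1 hr arrays all lay below the controls, as 5.5% of all probe sets did. X03347cds_g_at differed by -0.93 (SE 0.442) and X06769cds_at by -1.18 (SE 0.821). Both leaned on 1 hr replicate 1: without it X06769cds_at was 0.18 and X03347cds_g_at -0.50, and X03347cds_g_at was -0.55 without control replicate 1.

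Junb gave the smallest p of the family at 1 hr. Its probe set rc_AA891041_at differed by -1.80 (SE 0.632, unadjusted p = 0.0180 by limma) which is 3.48-fold lower. Its mean log2 intensity was 5.90 ± 1.63 (SD, n = 2) at 1 hr and 7.70 ± 0.68 (SD, n = 3) in the controls. This value came mostly from 1 hr replicate 1 at an intensity of 26.8, and without it the difference was -0.64. The brighter Junb probe set differed by only -0.36 (SE 0.433), and by 0.11 without control replicate 1. For Jun the 4 differences at 1 hr ran from -0.22 to 0.62, and for Fosl2 they were -0.14 and 0.04, with standard errors of 0.542 to 0.984. Within the 3 arrays of highest top intensity (1 against 1) the brightest probe set of Fos differed by -0.93, of Junb by 0.14, of Jun by 1.02 and of Fosl2 by 0.21, and within the others (1 against 2) by -0.29, -0.55, -0.46 and 0.10. No 1 hr array had a low 5S reading, and among the other arrays (2 against 1) these values were -0.79, 0.25, 1.59 and 1.03.

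**Figure D4:**
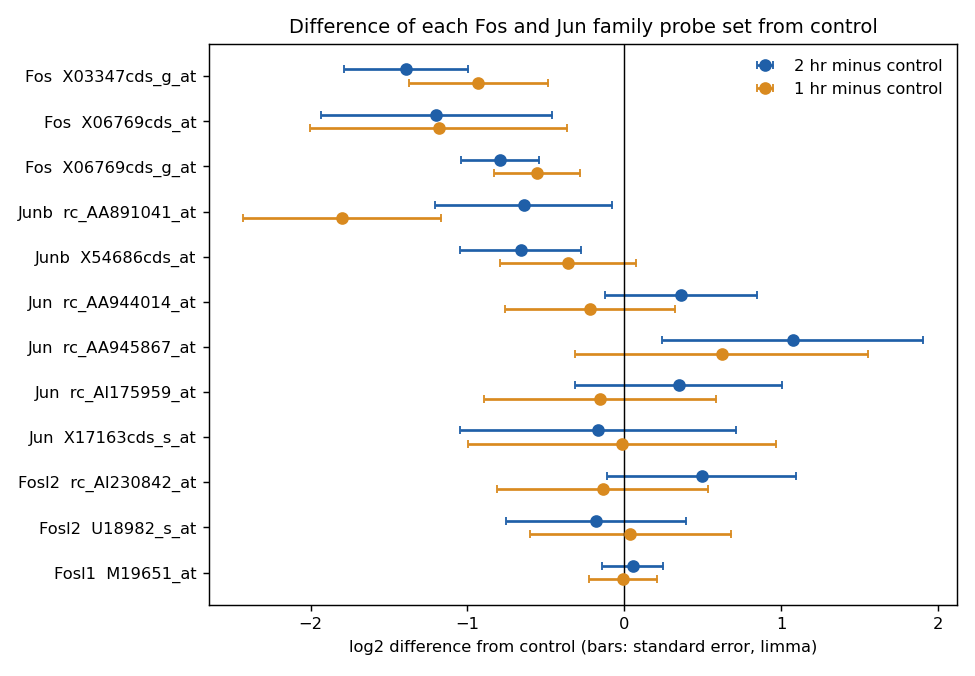
Log2 difference from control of each of the 12 probe sets at 2 hr and at 1 hr (horizontal axis), with bars of 1 standard error from limma. Fos and Junb lie below 0 at both times, from -1.80 to -0.36, though the bar of Junb X54686cds_at at 1 hr (SE 0.433) crosses 0. The bars of the Jun, Fosl2 and Fosl1 probe sets cross 0 except that of Jun rc_AA945867_at at 2 hr (1.07, SE 0.834).

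Between 2 hr and 1 hr no difference of the family passed either (limma, adjusted p = 1 for all 12, with 0% of the array called and 215 probe sets at an unadjusted p under 0.05). Of the 12, 6 were lower and 6 higher at 2 hr, against 52.6% of all probe sets lower. Fos X06769cds_g_at differed by -0.24 (SE 0.275) and Junb X54686cds_at by -0.30 (SE 0.433), and the 2 hr arrays of Junb X54686cds_at all lay below its 1 hr arrays, as those of 8.37% of all probe sets did. The Jun and Fosl2 readings were 0.50 (SE 0.739) and 0.63 (SE 0.674). The other Junb probe set, rc_AA891041_at, went the opposite way at 1.16 (SE 0.632, unadjusted p = 0.0979 by limma), the smallest p of the family in this comparison. In the order of mean levels, Fos X06769cds_g_at and Junb X54686cds_at ran from control through 1 hr to 2 hr downwards. Junb rc_AA891041_at was lowest at 1 hr, with mean log2 levels of 7.70 in the controls, 5.90 at 1 hr and 7.06 at 2 hr. On Fos X06769cds_g_at the control arrays did not overlap with the 1 hr arrays, and the 1 hr and 2 hr arrays overlapped. On Junb X54686cds_at the control and 1 hr arrays overlapped, and without control replicate 1 the 1 hr mean was the higher one, by 0.11.

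The levels of the members were also set against each other across the 8 arrays. Over the 10 pairs of genes, read on the brightest probe set, 0 correlations had an adjusted p under 0.05 in an exact permutation test (two-sided, adjusted over 10 pairs). The strongest was between Fosl2 and Jun, with Pearson's r = 0.916 (exact permutation p = 0.00541, adjusted p = 0.0541) and Spearman's rho = 0.595 (exact permutation p = 0.132, adjusted p = 0.516). Without the 2 arrays farthest from the median of Fosl2, r was 0.339. Leaving out the most extreme arrays narrows the range of values, which can by itself lower r. The permutation test treats all 8 arrays as exchangeable, although they come from 3 exposure groups and differ in top intensity. Fos and Junb gave r = 0.478 (exact permutation p = 0.241, adjusted p = 0.762) and rho = 0.429 (exact permutation p = 0.299, adjusted p = 0.598), with r = 0.746 without 2 arrays. Fos and Jun gave r = -0.343 (exact permutation p = 0.413, adjusted p = 0.793) and rho = 0.071 (exact permutation p = 0.882, adjusted p = 1), and r turned to 0.206 without 2 arrays. No correlation is given within the 3 arrays of highest top intensity or the other 5, since each set holds fewer than 6 arrays, the smallest number used here.

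Among 4366 other genes, those with the array pattern most like Fos were Vom1r93, a pheromone receptor gene (r = 0.948 over 8 arrays), Acrv1, which encodes a sperm acrosomal protein (r = 0.918), and Dusp6, a phosphatase that inactivates ERK kinases (r = 0.913). For Junb they were Ifnb1 (r = 0.958), LOC102553736 (r = 0.957) and Sftpc (r = 0.954), for Jun they were Madd (r = 0.991), App (r = 0.990) and Clip2 (r = 0.985), and for Fosl2 they were Dnm2 (r = 0.992), Arhgap1 (r = 0.983) and Deaf1 (r = 0.981). Fosl1 was closest to Adarb2, Cd8a and Gal (r = 0.969 to 0.981), with most of its own arrays at the floor. These r values were picked as the highest over 4366 genes that share the same 8 arrays, and they are a description.

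Of the AP-1 partners and related factors, 16 of 34 listed genes were measured, and 12 read higher and 4 lower at 2 hr than in the controls, with 0 past limma's adjusted threshold and a median log2 difference of 0.17 against 0.02 over all probe sets. The genes with the smallest unadjusted p were Cebpb, a leucine zipper factor of acute responses, at 1.35 (SE 0.558), Jund, the Jun family member that is usually present at a steady level, at 0.45 (SE 0.272) with all control arrays at the floor, and Dbp, a clock output factor, at 0.50 (SE 0.326). At 1 hr 11 read higher and 5 lower (median 0.30 against 0.05), with Cebpd at 0.74, Mafk at 0.56 and Atf2 at 0.86. Cebpb read 0.69 without the 3 arrays of highest top intensity.

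The kinases, phosphatases and factors upstream of Fos and Jun were balanced. Of 17 measured genes of 36 listed, 9 read higher and 8 lower at 2 hr, with 0 past the threshold and a median of 0.07. The named members of this list at 2 hr were Dusp6 at -0.91 (SE 0.361, unadjusted p = 0.0306 by limma), Dusp5, another ERK phosphatase, at -0.67 (SE 0.318) and the synaptic kinase Camk2a at 0.77 (SE 0.498). Without the 3 arrays of highest top intensity Dusp6 read -0.75 and Dusp5 -0.80. At 1 hr 9 read higher and 8 lower, with Mapk8, which encodes the kinase JNK1 that phosphorylates Jun, at 2.03 (SE 0.314, adjusted p = 0.684 by limma; control mean log2 of 3.32, near the floor), Map2k1 at -0.72 and Dusp5 at -0.68.

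Other immediate early genes did not share one direction. Of 48 listed 33 were measured, and at 2 hr 16 read higher and 17 lower, with 0 past limma's adjusted threshold, 6 at an unadjusted p under 0.05 (1.79% of all probe sets were) and a median of -0.01 against 0.02 over all probe sets. The list was chosen with earlier results of these data known, so its counts beside those of all probe sets are a description and no test of the list. Sgk1, a kinase induced by glucocorticoids as well as by serum, read 1.87 (SE 0.278) and Nfkbia, the inhibitor of NF-kappaB, 0.91 (SE 0.241), whereas Ccn1, a matrix protein gene induced by growth factors, read -0.84 (SE 0.304) with a mean log2 intensity of 3.24 at 2 hr, near the floor. Without the 3 arrays of highest top intensity 23 of the 33 read lower and the median was -0.33, against 41.8% of all probe sets lower and a median of 0.05 over them. At 1 hr 18 read higher and 15 lower (median 0.04), with Nfkbia at 1.22, Sgk1 at 1.22 and Ier5 at 2.40, and without those arrays (1 against 2) 22 of 33 read lower with a median of -0.15, against 49.1% of all probe sets lower and a median of 0.

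Genes with described AP-1 sites in their control regions, the possible downstream readout of the family, were split in direction. Of 38 listed 27 were measured, 16 higher and 11 lower at 2 hr with a median of 0.08, and 14 higher and 13 lower at 1 hr with a median of 0.06. None passed limma's adjusted threshold at either time. At 2 hr the named ones were Col1a2, a collagen chain, at 0.70 (SE 0.321), the filament gene Vim at 0.88 (SE 0.463) and the matrix protease Mmp9 at 0.72 (SE 0.417). Mmp9 had a control mean log2 intensity of 3.88, not far above the floor, and read 0.20 without the 3 arrays of highest top intensity. Col1a2 is also among the 7 meningeal and fibroblast markers, whose intensities summed to 1337 to 1957 on the 2 hr arrays and 702 to 1494 on the control arrays, and the part of these cells in its value was not tested. At 1 hr Cd44, a hyaluronan receptor, read -1.15 (SE 0.451) with a mean log2 intensity of 3.50 at 1 hr, near the floor. Col1a2 read 0.65 and the protease Plau 0.72.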

How the data were processed

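Per the labels, 8 whole rat brain RNA samples fell into a control group (3), a 1 hr group (2) and a 2 hr group (3). The authors deposited intensities on a linear scale. Neither labels nor file headers name the software or scaling behind them. With 2% trimmed at each end, array means were 150.2 to 150.3, and no further scaling was applied. Array pairs correlated at 0.876 to 0.969 and shared at most 70 identical values, and all were counted as separate samples. The labels name no animal numbers, so p-values measure the spread between these samples, which may in part be technical.

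Values were floored at the 20th percentile (intensity 9.1) and log2 was taken. Without the 59 control probe sets, 7770 probe sets above the floor on at least 2 arrays were tested, among them all 12 members. Limma 3.58.1 in R 4.3.3 (lmFit, contrasts.fit, eBayes with trend, all 8 arrays, two-sided) gave differences, standard errors and p-values, adjusted by Benjamini-Hochberg over 7770 at a threshold of 0.05. Folds are on the floored log2 scale. The steps were tested on simulated data.

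Names came from the platform's annotation table, updated through gene numbers for 6985 probe sets. A gene of a list was read on its brightest probe set. Named were all member probe sets, the 3 genes of each list with the smallest unadjusted p at 2 hr and at 1 hr, and the 3 genes whose brightest probe set correlated best with each member. Members and lists were chosen with earlier results of these data known. Precision is limited by the number of arrays.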

Additional observations from a re-analysis of the deposited data

How the results depend on the processing

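No member passed the adjusted threshold of 0.05 in limma under any of up to 21 alternative settings per probe set, and the smallest adjusted p was 0.124, for Junb rc_AA891041_at at 1 hr without 1 hr replicate 2. Of 603 recomputed differences 555 kept their direction, with Fosl1 differences of 0 at 1 hr counted as kept. For 2 hr against 1 hr only the brightest probe set of each gene is in this count. At 2 hr against control the differences of Fos (63 of 63) and Junb (42 of 42) all kept their direction, against 75 of 84 for Jun and 37 of 42 for Fosl2. These counts include settings that could not turn a difference, and they pool probe sets of the same gene, which are not independent. Changing only the filter, the estimate of the spread or arrays outside the comparison left it as it was. At 2 hr against control the replicate block and the block of highest top intensity did so too. Fos X06769cds_g_at and X03347cds_g_at, without overlap at 2 hr, also could not turn when arrays were left out. Over all probe sets the count of calls was 0 in each comparison, but without the low-value filter it was 4 at 1 hr and 4 for 2 hr against 1 hr, with no member among them. Where an arm was left with 1 array, that array was assumed to vary like the others, and the cause of the turns below was not tested. Fosl1 lies at the floor, and any of its values depends on it.

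At 2 hr against control, Fosl1 turned to -0.023 with median centring, -0.14 with the floor at the 5th percentile and -0.031 with a pseudocount of 16. Fosl2 U18982_s_at turned to 0.0054 with the floor at the 40th percentile and 0.15 with the 5S reading as a block, under which Jun X17163cds_s_at turned to 0.69. Jun rc_AA945867_at, with control replicate 3 at the floor, was 1.72 with the floor at the 5th percentile and 0.53 with it at the 40th. Without the arrays of highest top intensity Jun rc_AA945867_at was -0.16 and rc_AI175959_at -0.36. Leaving out 1 replicate in turn gave -0.076 to 1.72 for Jun rc_AA945867_at, -0.52 to 0.79 for rc_AI175959_at, -1.15 to 0.37 for X17163cds_s_at, -0.088 to 0.79 for Fosl2 rc_AI230842_at and -0.53 to 0.20 for U18982_s_at. For Fos the same ranges were -0.90 to -0.68 (X06769cds_g_at), -1.68 to -1.01 (X03347cds_g_at) and -1.56 to -0.71 (X06769cds_at).

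At 1 hr against control, Fosl2 U18982_s_at turned to -0.17 with quantile normalization and -0.077 with median centring, and Jun rc_AA944014_at to 0.030 with the floor at the 40th percentile. With the arrays of highest top intensity as a block Jun rc_AI175959_at was 0.086, Jun X17163cds_s_at 0.27 and Fosl2 rc_AI230842_at 0.066, and with the 5S block 0.96, 1.70 and 0.47. Without the arrays of highest top intensity Jun rc_AA945867_at was -0.67 and Fosl2 rc_AI230842_at 0.10. Leaving out 1 replicate in turn gave -1.06 to 0.62 for Jun rc_AA944014_at, -0.53 to 1.27 for rc_AA945867_at, -1.03 to 0.42 for rc_AI175959_at, -0.999 to 0.52 for X17163cds_s_at, -0.95 to 0.68 for Fosl2 rc_AI230842_at, -0.79 to 0.87 for U18982_s_at, -2.54 to 0.18 for Fos X06769cds_at, -1.36 to -0.50 for Fos X03347cds_g_at and -0.66 to 0.11 for Junb X54686cds_at. For 2 hr against 1 hr, Jun turned to -0.055 with the 5S block and Fosl2 to -0.058 without the arrays of highest top intensity, and leaving out 1 replicate gave -0.068 to 1.07 and -0.18 to 1.45. Across arrays r was 0.244 for Fos and Fosl2, 0.206 for Fos and Jun and 0.339 for Fosl2 and Jun without the 2 arrays farthest from the median.

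The replicate numbers of the titles were not used as pairs. Deviations of same-numbered arrays from their group means correlated at -0.331 to 0.286 over the probe sets tested, and not every array correlated best with its own number. In groups this small the deviations constrain each other, and those of the 1 hr arrays are mirror images. The check therefore cannot tell whether the samples were paired. With the replicate block the count of calls stayed at 0 in each comparison, and 1 of the recomputed member differences turned, Fosl2 U18982_s_at at 1 hr (-0.33).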
